A study of Mus musculus with 10 samples.

Results

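The Slc25a genes encode the mitochondrial carriers, and all 44 genes whose symbol in the array platform's annotation begins with Slc25a were examined, out of 18193 genes with a probe set of their own. They have 93 probe sets, of which the one with the highest mean over the 10 arrays stood for each gene; 23 of the 44 genes had more than 1. A further probe set that lists Slc25a37 together with a second gene was not used. Expression was measured on microarrays with biotin-labelled total RNA from B6xBALB F2 mice, the grandchildren of a C57BL/6 by BALB/c cross. There were 8 cystic fibrosis knockouts, 5 of them coded H and 3 coded L in the sample titles, and 2 controls coded D. The letters are not spelled out in the labels, and the title of the series speaks of knockout mice of variable weight. Every title also holds the letter M or F (6 and 4 animals) and an animal number that lies in a lower range (3 knockouts and both controls) or an upper range (5 knockouts). Age and diet are not given in the labels, nor is the way in which Cftr was disrupted, and no other allele or agent is named for either group. D and the control genotype cannot be told apart. The design text speaks of more animals; the 8 knockouts and 2 controls with arrays were analysed here, and precision is limited above all by the 2 controls.

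The labels name right lung as the source and the series title names the intestine. Defining transcripts of small intestine epithelium were bright on all arrays, with villin (Vil1) at 2675 ± 164 in knockouts and 3644 ± 109 in controls (linear intensity as deposited, SD, n = 8 and 2), and lung transcripts were present too (Sftpc, surfactant protein C, 2178 ± 1113 and 1149 ± 58.3). The tissue label was therefore not relied on. Cftr, the chloride channel gene lost in cystic fibrosis, lay between 19.7 and 35.4 in the 8 knockouts and at 131 and 137 in the controls, so every array matched its label. Red cell transcripts and the brown fat transcript Ucp1 were dim, while some other fat markers were brighter and are given below with the cell type markers. Hba-a1 (alpha globin) averaged 13.3 and 14.9, and Ucp1 (the uncoupling protein of brown fat) 12.8 and 12.8 in knockouts and controls, against array medians of 18.4 to 18.8.

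Mitochondrial carriers are small membrane proteins built from repeats of a shared fold, nearly all in the inner mitochondrial membrane, and they exchange nucleotides, phosphate, organic acids, amino acids, cofactors and metal ions between the matrix and the cytosol. The inner membrane is otherwise closed to most of these solutes, so carriers link pathways that are split between both compartments. In enterocytes, the absorptive cells of the small intestine, mitochondria make citrulline and proline from glutamine and oxidise absorbed fuels, and such pathways draw on the ornithine, glutamate and dicarboxylate carriers.

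Knockout versus control asked how these genes differ between the 8 knockouts and the 2 controls. Of the 44 carriers, 39 passed the filter on dim genes (a mean over all arrays above the 25th percentile of genes, an intensity of 13.6). Against the controls, 6 of the 39 fell in the knockouts and 0 rose, with adjusted p under 0.05 in limma over all genes. They were Slc25a48, Slc25a15, Slc25a37, Slc25a45, Slc25a44 and Slc25a10. That is 15.4% of the carriers tested, where 2.79% of all 13644 genes tested were called lower, 1.52% higher and 4.31% either way. At an unadjusted p under 0.05 there were 9 carriers (23.1%), near the 19.4% of all genes at that level in limma. The median log2 difference was -0.09 over the 39 carriers and -0.0047 over all genes. The difference is knockout minus control on the log2(intensity + 16) scale, adjusted for number range and letter. With the range in the fit it rests on the 3 knockouts and 2 controls of the lower range, and dim genes are understated. The number 16 is added to every intensity before the logarithm.

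**Figure D1:**
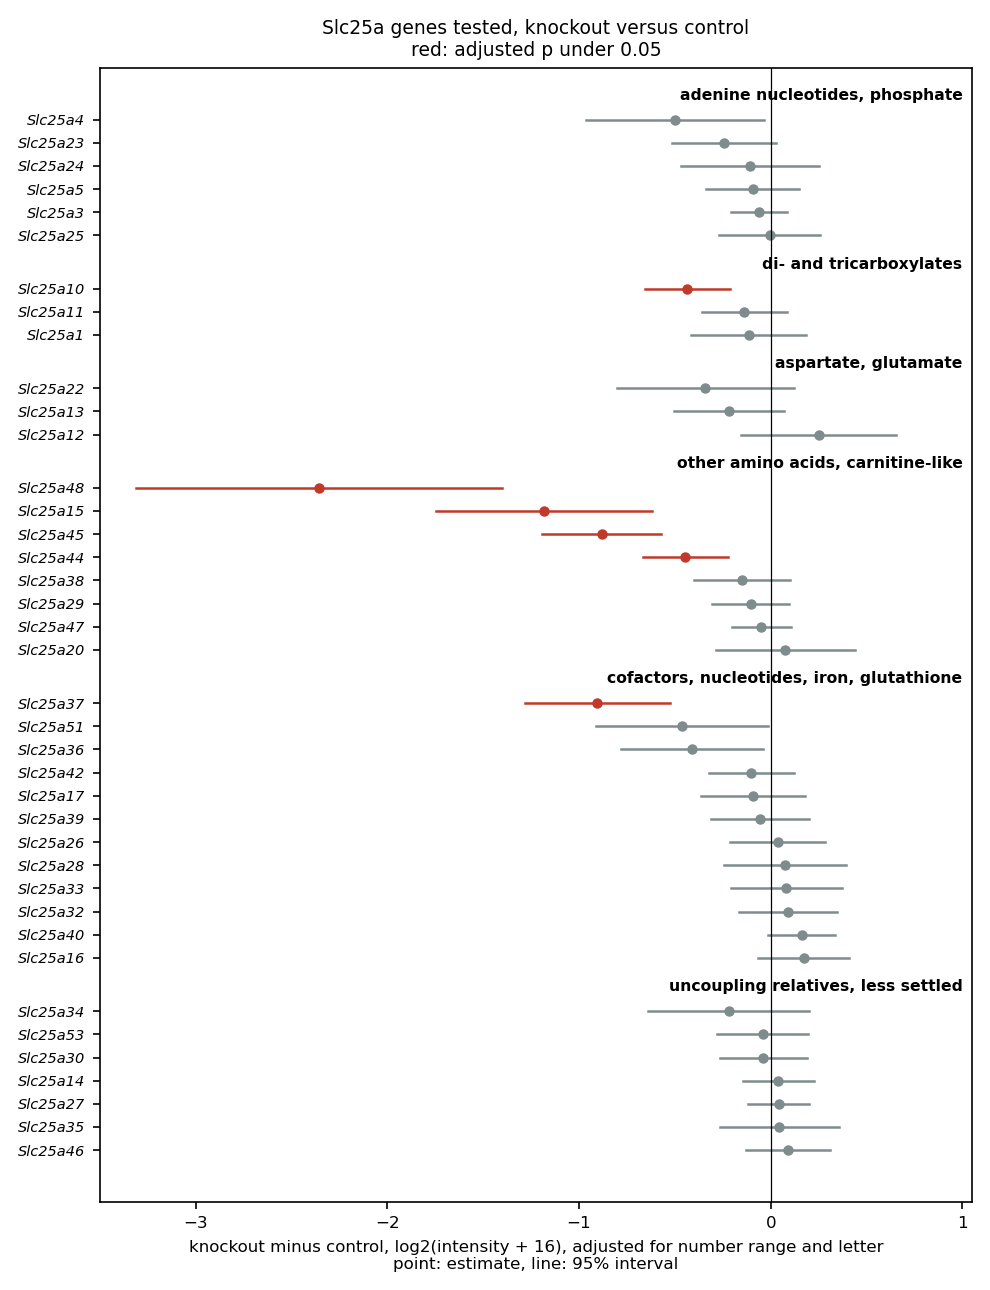
Log2 difference (knockout minus control, log2(intensity + 16), adjusted for number range and letter) of the 39 carriers tested, as point and 95% interval, in 6 role groups from top to bottom. The 6 carriers past the threshold (red) all lie left of 0, with 4 of them in the group of other amino acid and carnitine-like carriers, and Slc25a48 lies farthest at -2.35.

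The group of carriers for ornithine, carnitine and amino acids other than aspartate and glutamate held 4 of the 6 falls among its 8 members tested. Slc25a48, a relative of the carnitine carrier that takes choline into mitochondria, read 14.9, 51.6, 26.6, 28.7 and 18.3 in knockouts H and 66.5, 17.0 and 18.8 in knockouts L, against 225 and 139 in the controls. All 8 knockouts lay below both controls, with H replicate 2 and L replicate 1 well above the other 6. Its log2 difference was -2.35 ± 0.42 (SE; limma adjusted p = 0.0215), or 5.12-fold lower. At 14.9 to 28.7, the other 6 knockouts were close to the array medians.

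Slc25a15 is the ornithine carrier, which exchanges cytosolic ornithine for citrulline made in the matrix. Its lowest, median and highest knockout intensities were 309.2, 489 and 614, and the controls read 1011 and 919.8. The groups were apart, and the gene was 2.27-fold lower in knockouts (log2 difference -1.18 ± 0.25, limma adjusted p = 0.0341). The lowest knockouts were H replicate 3 (309.2) and L replicate 3 (357).

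Slc25a45, another relative of the carnitine carrier, had knockout intensities of 28.7 (lowest), 40.2 (median) and 46.6 (highest), and control intensities of 91.9 and 69.4. Its groups did not overlap either, and it had the smallest p of the family (log2 difference -0.88 ± 0.14, limma adjusted p = 0.0161). Slc25a44, a carrier of branched-chain amino acids, was different in kind. The knockouts ranged from 102 to 156 with a median of 138, the controls read 139 and 159.8, and so the groups overlapped. The 3 knockouts of the lower range (102 to 107) were below both controls, while 4 of the 5 of the upper range (126 to 156) lay between the controls. Its log2 difference of -0.44 ± 0.098 (limma adjusted p = 0.0386) passed, while without covariates it was -0.18 (adjusted p = 0.514).

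The other 4 members of this group did not pass. Slc25a20, the carnitine-acylcarnitine carrier that brings fatty acids into the matrix, averaged 380 ± 54.1 in knockouts and 345 ± 14.6 in controls (SD, n = 8 and 2). Its log2 difference was 0.08, with a 95% interval of -0.29 to 0.44. Slc25a29, a carrier of basic amino acids, had a log2 difference of -0.10 (95% interval -0.30 to 0.10) and Slc25a38, a glycine carrier needed for haem synthesis, one of -0.15 (-0.40 to 0.10). Slc25a47, a carrier known mainly from liver, averaged 17.1 in knockouts and 19.7 in controls, at the level of the array medians. Slc25a2, a second ornithine carrier, was too dim to be tested (12.0 and 11.9).

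The promoters of 3 members of this group that fell are shown because all 3 were called lower against the same controls. Whether these genes vary together was not tested. Slc25a44 has no entry in the table used. The windows are from RefSeq (GRCm38.p6) and run from 250 bases before to 50 bases after the annotated gene start, 5′ to 3′ on the gene's strand. Slc25a48 lies at chr13:56438105-56438404 (plus strand), Slc25a45 at chr19:5877572-5877871 (plus strand) and the start shown of 2 for Slc25a15 at chr8:22398228-22398527 (minus strand). Capitals mark every match, on either strand, to any of 6 motifs. These were the GC box (letters GGGCGG), an E-box (CACGTG), the TATA box (TATAAA), the CCAAT box (its own letters), a site for CDX factors (TTTATNG) and a site for HNF4 (CAAAGTCCA), and none of these contains another.
Slc25a48: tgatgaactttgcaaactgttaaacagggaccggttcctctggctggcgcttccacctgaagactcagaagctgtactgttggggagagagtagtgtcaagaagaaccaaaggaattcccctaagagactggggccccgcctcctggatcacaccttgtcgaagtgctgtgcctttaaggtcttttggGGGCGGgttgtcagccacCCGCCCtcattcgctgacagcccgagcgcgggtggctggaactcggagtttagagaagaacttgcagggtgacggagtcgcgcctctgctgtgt
Slc25a45: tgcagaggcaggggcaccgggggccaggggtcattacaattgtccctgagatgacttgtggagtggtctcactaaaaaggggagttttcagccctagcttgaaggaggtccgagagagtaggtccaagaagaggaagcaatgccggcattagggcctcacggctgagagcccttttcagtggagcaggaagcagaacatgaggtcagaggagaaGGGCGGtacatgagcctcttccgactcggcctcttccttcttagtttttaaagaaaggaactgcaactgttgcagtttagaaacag
Slc25a15: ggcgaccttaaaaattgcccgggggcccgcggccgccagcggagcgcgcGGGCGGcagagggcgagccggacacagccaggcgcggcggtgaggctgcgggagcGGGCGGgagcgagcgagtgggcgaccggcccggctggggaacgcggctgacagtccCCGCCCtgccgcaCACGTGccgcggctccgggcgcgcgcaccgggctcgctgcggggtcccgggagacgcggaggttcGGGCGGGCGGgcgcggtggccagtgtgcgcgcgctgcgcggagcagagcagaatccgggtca
All capitals are GC boxes except the E-box CACGTG of Slc25a15. The Slc25a15 window shown held 51 CG dinucleotides, that of Slc25a48 14 and that of Slc25a45 7. The window of the other Slc25a15 start, not shown, held 15, with GC boxes but no E-box. The last 2 GC boxes of the Slc25a15 window shown overlap. Over the whole family, 34 of 44 genes matched the table with 43 promoter windows. The GC box was in 37 of these windows (86.0%), against 35.7% of all 32851 windows in the table (27025 genes). The TATA box letters were in 1 of the 43 (2.33%, against 13.6%), and those of CDX, a factor of intestinal epithelium, in 2 (4.65%, against 10.9%). The E-box was in 8 (18.6%, against 7.15%) and the CCAAT box in 21 (48.8%, against 37.4%). The HNF4 letters were in 0 of the 43 and in 0.475% of the table. The median number of CG dinucleotides was 16 in the family's windows and 7 in all windows of the table. Motif shares were not adjusted for base composition, and its part in them was not tested. A match is a run of letters and not a shown binding site.

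**Figure D2:**
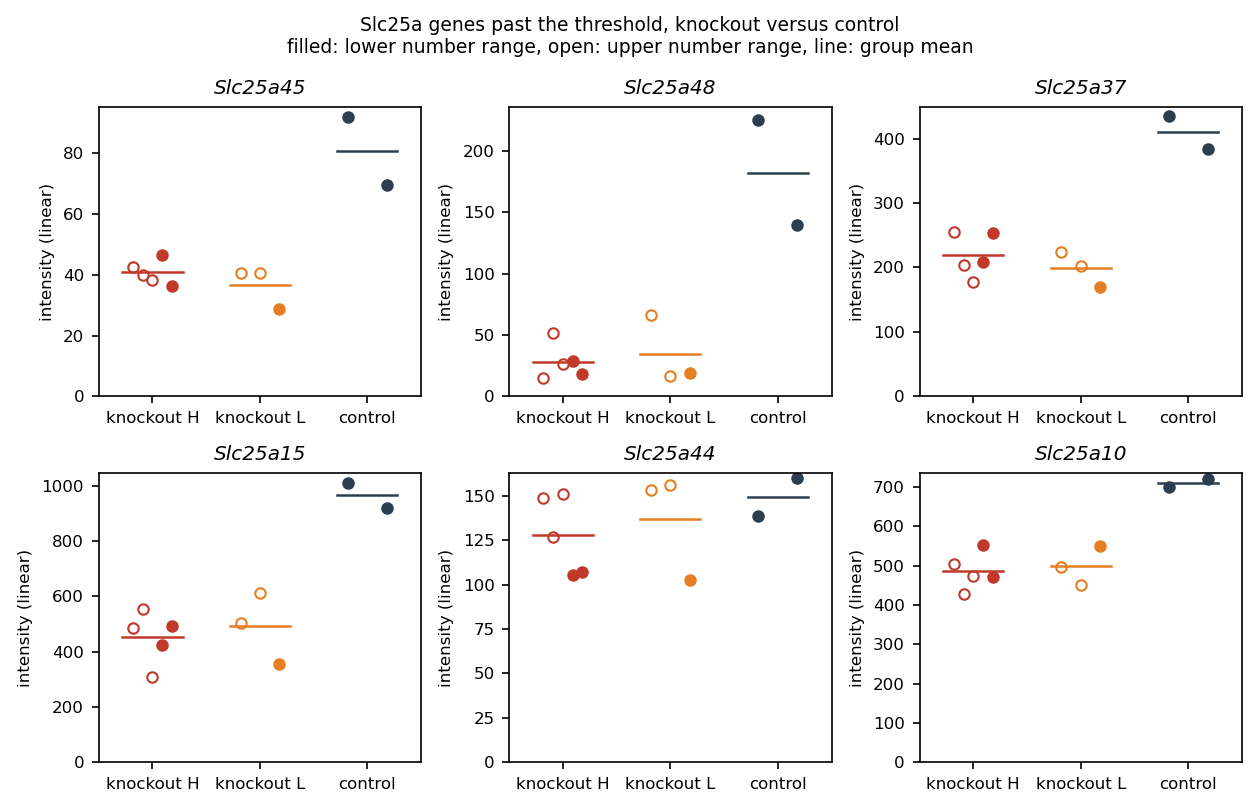
Linear intensity on each array for the 6 carriers past the threshold in knockout versus control, with knockout H (5 arrays), knockout L (3) and control (2) from left to right; filled points are animals of the lower number range, open points of the upper range, and lines are group means. For 5 genes all knockouts lie below both controls, and for Slc25a44 the 3 filled and 1 of the 5 open knockout points do so.

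Among carriers of di- and tricarboxylates, 1 of 3 tested fell. Slc25a10 exchanges malate and succinate for phosphate. It had knockout intensities of 427 (lowest), 486 (median) and 554 (highest) and control intensities of 700.4 and 721. The groups were apart, with a log2 difference of -0.43 ± 0.098 (limma adjusted p = 0.0425), or 1.35-fold lower. Slc25a1, the citrate carrier that exports carbon for lipid synthesis, averaged 399 ± 61.9 in knockouts and 483 ± 31.7 in controls. Its log2 difference of -0.12 (95% interval -0.42 to 0.19) did not pass, and knockout H replicate 4 (532.2) lay above both controls. The oxoglutarate-malate carrier Slc25a11 (311.7 ± 30.6 and 352 ± 60.03 in knockouts and controls) likewise did not pass (-0.14).

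Carriers of cofactors, nucleotides other than adenine nucleotides, iron and glutathione had 1 fall among 12 tested. Slc25a37, mitoferrin 1, imports iron into mitochondria and is best known from developing red cells. Its knockout intensities were 169.5 (lowest), 206 (median) and 256 (highest), and the controls read 436 and 384. No knockout came near a control, and the log2 difference was -0.90 ± 0.17 (limma adjusted p = 0.0233), or 1.87-fold lower. Beside it, the 3 members tested of the red cell list had log2 differences of -0.09 to 0.11, none passed (limma), and their summed intensity was 43.5 to 96.5 in knockouts and 53.3 to 58.3 in controls. Slc25a28, mitoferrin 2, averaged 119 ± 20.9 in knockouts and 130 ± 4.504 in controls (log2 difference 0.07, 95% interval -0.24 to 0.39).

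Within the same group, Slc25a51, which brings NAD into mitochondria, averaged 286 ± 53.4 in knockouts and 421 ± 9.12 in controls. All 8 knockouts were below both controls, but the difference of -0.46 ± 0.20 did not pass (limma adjusted p = 0.244). Slc25a36, a carrier of pyrimidine nucleotides, averaged 137 ± 21.4 and 182 ± 24.5 and did not pass either (-0.41 ± 0.16, limma adjusted p = 0.210). Slc25a39, which supplies mitochondria with glutathione, averaged 1236 ± 168 and 1468 ± 95.8 with a difference of -0.06. Its relative Slc25a40 and the coenzyme A-related carrier Slc25a16 pointed the other way in raw values. Slc25a40 averaged 30.1 and 24.9 and Slc25a16 averaged 55.1 and 41.7 in knockouts and controls, all 8 knockouts above both controls, yet their adjusted differences were 0.16 and 0.17 and did not pass. Slc25a42 (a coenzyme A carrier), Slc25a17 (of peroxisomes), Slc25a26 (S-adenosylmethionine), Slc25a32 (folate and FAD) and Slc25a33 (pyrimidine nucleotides) had differences of -0.10 to 0.09 and did not pass.

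None of the 6 tested carriers of adenine nucleotides and phosphate passed. Slc25a5, an ADP/ATP carrier, averaged 5139 ± 369 in knockouts and 5383 ± 561 in controls, with a log2 difference of -0.09 (95% interval -0.34 to 0.15). Slc25a3, the phosphate carrier, averaged 3098 ± 119 and 3357 ± 71.2. All 8 knockouts were below both controls there, but by little (log2 difference -0.06, 95% interval -0.21 to 0.08). Slc25a4, the ADP/ATP carrier typical of muscle and heart, averaged 378 ± 66.7 and 575 ± 57.0 with all knockouts below both controls, and its difference of -0.50 ± 0.21 did not pass (limma adjusted p = 0.225). The smooth muscle list beside it had summed intensities of 5122 to 9535 in knockouts and 4920 to 10225 in controls, and the striated muscle list 229 to 453 and 341 to 599; their part in the level of Slc25a4 was not tested. The calcium-regulated ATP-Mg/phosphate carriers Slc25a24 (950.0 and 1019), Slc25a25 (72.4 and 81.4) and Slc25a23 (18.1 and 27.98 in knockouts and controls) had differences of -0.11, -0.0060 and -0.24. Slc25a31 (4.55 and 4.70), an ADP/ATP carrier of germ cells, and Slc25a41 (8.45 and 9.31) were too dim to be tested.

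None of the 3 tested aspartate and glutamate carriers passed. Slc25a22, a glutamate carrier, averaged 246 ± 55.1 in knockouts and 317 ± 4.10 in controls (log2 difference -0.34, 95% interval -0.80 to 0.12), and knockout L replicate 2 (346) exceeded both controls. The aspartate-glutamate carriers Slc25a12 and Slc25a13, parts of the malate-aspartate shuttle, averaged 120 and 66.9 in knockouts and 104 and 81.0 in controls, with differences of 0.25 and -0.22. Slc25a18, the other glutamate carrier, was dim (11.1 and 12.4). The 7 tested relatives of the uncoupling proteins and carriers of less settled role (Slc25a14, Slc25a27, Slc25a30, Slc25a34, Slc25a35, Slc25a46 and Slc25a53) had differences between -0.22 and 0.09 and none passed. Slc25a46, a protein of the outer mitochondrial membrane, averaged 186 ± 16.3 in knockouts and 164 ± 1.68 in controls, with all 8 knockouts above both controls, and Slc25a54 was too dim to be tested (8.43 and 9.32).

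**Figure D3:**
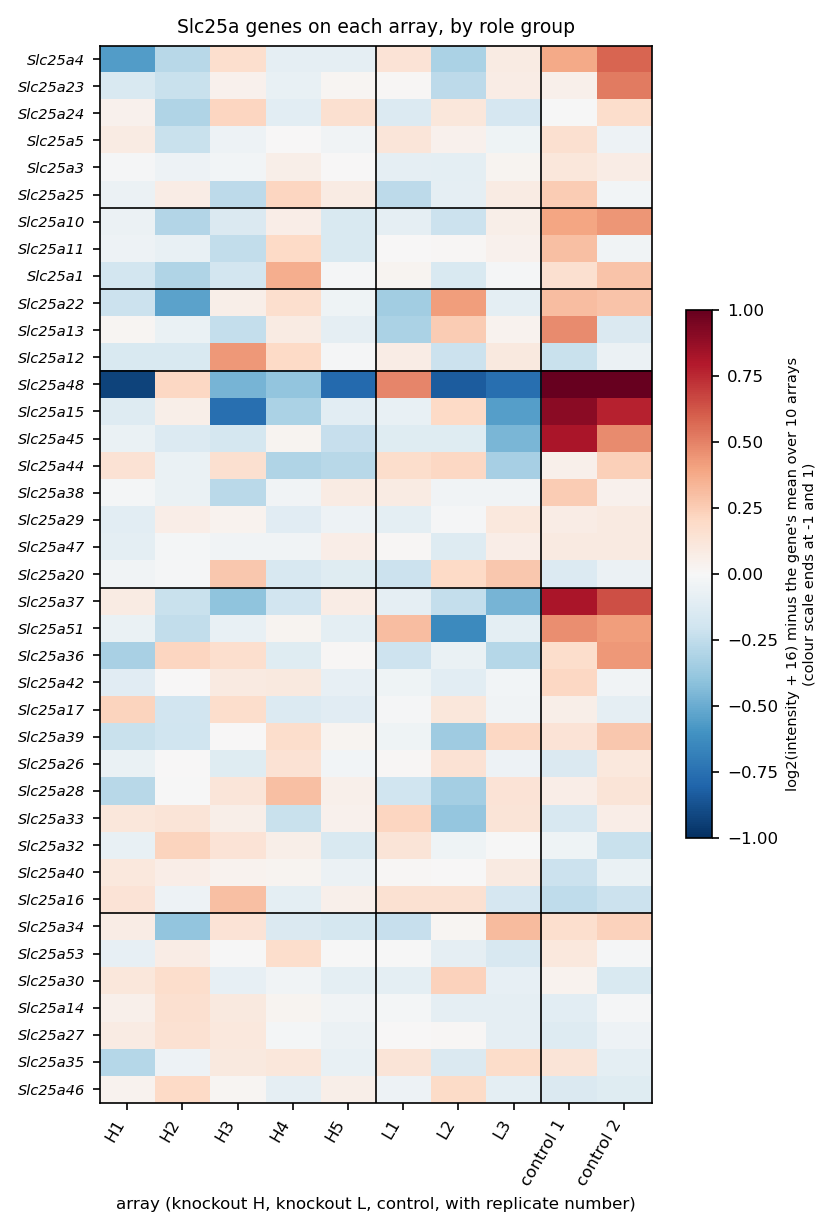
Each of the 39 carriers tested (rows, by role group) on each of the 10 arrays (columns), as log2(intensity + 16) minus the gene's mean over the arrays; red is above and blue below that mean, and the colour scale ends at -1 and 1. Slc25a48, Slc25a15, Slc25a45 and Slc25a37 are red in both controls and blue or pale in most knockouts, while most rows of the last group are pale throughout.

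Over the family, all 8 knockouts lay below both controls for 9 of 39 carriers (23.1%) and above both for 3 (7.69%). Among all genes tested the shares were 11.7% and 10%. The 9 were the 5 called genes other than Slc25a44, and Slc25a3, Slc25a4, Slc25a47 and Slc25a51. These counts are not adjusted for range or letter. The 5 called genes had been picked as lower, so their separation from the controls is no added support.

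Other probe sets gave a second reading of the transcript on the same arrays for 4 of the 6 genes that fell. The 6 genes that fell had 12 tested probe sets, all with negative differences, and 9 passed in a fit over all 33777 probe sets above the filter. Both counts include the 6 probe sets by which the genes were called, so only the others are further readings. The 9 were the only passing ones among the family's 84 tested probe sets, and 1.43% of all probe sets were called lower. The other 2 probe sets of Slc25a48 averaged 11.003 ± 1.38 and 11.8 ± 0.941 in knockouts and 38.3 ± 4.72 and 27.99 ± 3.40 in controls (SD, n = 8 and 2). Their differences were -0.96 ± 0.078 and -0.67 ± 0.069 (limma adjusted p = 0.00481 and 0.0077). Their knockout values lay little above the filter of that fit (10.6), where the added 16 compresses differences and spread. The second probe set of Slc25a10 passed (-0.35 ± 0.076), and those of Slc25a15 (-1.27 ± 0.30, limma adjusted p = 0.0652) and Slc25a44 (-0.51 ± 0.11 and -0.25 ± 0.10, limma adjusted p = 0.0513 and 0.255) did not. For the middle of the 3 Slc25a44 probe sets, all knockouts (up to 84.1) lay below both controls (at least 102). Slc25a45 and Slc25a37 had 1 probe set each.

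**Figure D4:**
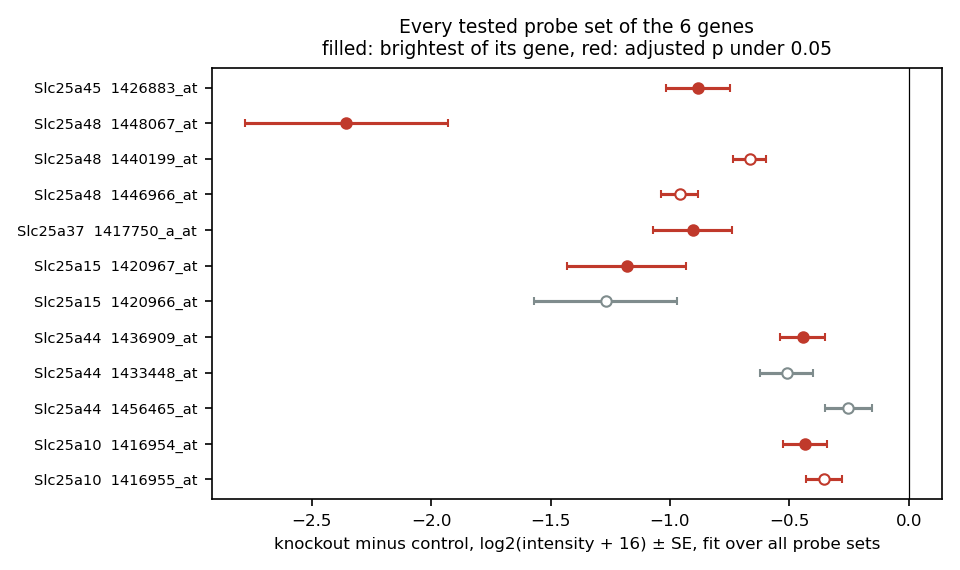
Log2 difference (knockout minus control, log2(intensity + 16)) ± SE for each of the 12 tested probe sets of the 6 genes that fell, from a fit over all probe sets; filled points are the brightest probe set of a gene and red ones have an adjusted p under 0.05. All 12 lie left of 0, and 9 are red. The filled points are the probe sets by which the genes were called, so only the open ones are further readings.

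Enzymes that handle the same solutes were examined beside the carriers. Of 8 tested genes of ornithine, arginine and citrulline metabolism, 2 fell and 0 rose. Arg2, the mitochondrial arginase that makes ornithine, had a lowest, median and highest knockout intensity of 21.0, 63.3 and 122 and control intensities of 443 and 318 (log2 difference -2.34 ± 0.44, limma adjusted p = 0.0248). Prodh, the proline dehydrogenase of mitochondria, averaged 151 ± 20.2 and 254 ± 3.04 (-0.81 ± 0.14, limma adjusted p = 0.0186). Of 8 tested choline and glycine oxidation genes 1 fell. It was Chdh, the mitochondrial choline dehydrogenase, with 545 ± 41.9 in knockouts and 685 ± 42.0 in controls (-0.45 ± 0.071, limma adjusted p = 0.0162). Of 10 carnitine shuttle and fatty acid oxidation genes 1 fell, Slc22a5, the carnitine importer of the plasma membrane, with 276 ± 34.2 and 420 ± 57.3 (-0.63 ± 0.13, limma adjusted p = 0.0291). Over all genes tested, 2.79% were called lower. Arg2, Prodh, Chdh and Slc22a5 each had no knockout array as high as the lower control array, as held for 11.7% of all genes tested. They had been picked as called lower, so this separation is no added support.

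Lists of other mitochondrial genes held no call. None passed of 15 genes of the respiratory chain, outer membrane and matrix (median log2 difference 0.09), 10 of the import route that inserts carriers into the inner membrane (0.14), 10 regulators of mitochondrial biogenesis (0.02), 9 other pores and carriers (0.05), 9 of haem and iron-sulfur synthesis (-0.06), 7 of citrate and lipid synthesis (-0.13), 6 of the malate-aspartate and glycerol phosphate shuttles (0.06) and 3 carrier family genes with other symbols (0.0015). At an unadjusted p under 0.05 in limma these lists held 3, 2, 3, 2, 1, 3, 1 and 0 genes, where 19.4% of all genes did so. The summed intensity of the 15 respiratory chain, outer membrane and matrix genes was 23096 to 24932 in knockouts and 23176 to 23528 in controls. Their mean log2 level, as deviation from the mean over all arrays, was -0.016 to 0.066 in knockouts and -0.068 to -0.052 in controls. On that scale the groups did not overlap, and 12 of the 15 differences were positive.

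Some markers of small intestine epithelium were called lower as well, beside Slc25a48, Slc25a15, Slc25a37, Slc25a45, Slc25a44 and Slc25a10. Of 13 tested, 4 fell and 0 rose, where 2.79% of all genes tested were called lower and 1.52% higher. The 4 were Cdx2 (log2 difference -0.85), a transcription factor of intestinal identity, Vil1 (-0.51), the brush border peptidase Anpep (-1.23) and the fatty acid binding protein Fabp2 (-0.93). Of the other 9, 7 had negative and 2 positive differences, and Apoa4, an apolipoprotein of fat absorption, averaged 1101 ± 524 in knockouts and 558 ± 74.0 in controls, with all 8 knockouts above both controls (log2 difference 0.65, limma adjusted p = 0.475). Of the 13 markers, 8 had an unadjusted p under 0.05 in limma (all genes 19.4%). All 8 knockouts lay below both controls for 8 of the 13 and above both for 1 (all genes 11.7% and 10%). The summed intensity of the 13 was 31964 to 40007 in knockouts and 47884 to 49756 in controls, with no overlap. With the mean level of these markers as a further covariate, added after the data were seen, 0 carriers and 0 of 13644 genes passed in limma, and all 6 differences stayed negative (-1.96 for Slc25a48, -0.70 for Slc25a45, -0.51 for Slc25a15, -0.46 for Slc25a10, -0.44 for Slc25a37 and -0.25 for Slc25a44; adjusted p 0.813 to 0.938). The marker mean itself lay at -0.24 to 0.12 in knockouts and 0.30 to 0.37 in controls (log2, as deviation from the mean over all arrays). It thus largely follows genotype, and in that fit Cftr did not pass either. The fit therefore cannot separate marker level from genotype. In tissue of several cell types, fewer cells of a type and less RNA per cell cannot be told apart. Neutrophil markers had summed intensities of 163 to 316 in knockouts and 145 to 156 in controls, with 0 of 8 past the threshold in limma and 3 at an unadjusted p under 0.05 (all genes 19.4%). Markers of T and natural killer cells (summed intensities 205 to 1367 and 859 to 982, 0 of 9 past the threshold) overlapped between the groups. All 9 of them had negative differences, with a median of -0.57. The 3 tested markers of brown and white fat had summed intensities of 169 to 1499 in knockouts and 767 to 1117 in controls. All 3 had negative differences (-1.12 to -0.58), with 0 past the threshold in limma. The part of neutrophils, T and natural killer cells and fat in the levels of the carriers was not tested. The alveolar and club markers, at summed intensities of 4315 to 14123 in knockouts and 5286 to 5605 in controls, had 0 of 11 past the threshold. With their mean as a covariate, also added after the data were seen, the same 6 carriers passed. Without the 2 arrays highest in these markers (knockouts H replicate 2 and H replicate 5), Slc25a15, Slc25a37 and Slc25a45 passed and Slc25a48, Slc25a44 and Slc25a10 did not (limma adjusted p = 0.0589, 0.0573 and 0.103).

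Within the lower number range alone, the 3 knockouts and 2 controls gave 9 carriers past the threshold, all lower: the same 6 with Slc25a4, Slc25a36 and Slc25a51. Calls over all genes rose as well in that fit, to 600 lower and 433 higher, against 381 and 207 with all arrays. The upper range holds no control. The calls leaned on single arrays, above all on the controls: 0 carriers passed in limma without control replicate 1 or without control replicate 2. Of the knockouts, leaving out H replicate 4 or L replicate 3 left 1 carrier (Slc25a45), H replicate 5 left 3 (Slc25a15, Slc25a37, Slc25a45), L replicate 1 left 3 (Slc25a37, Slc25a45, Slc25a48), H replicate 3 or L replicate 2 left 4, H replicate 1 left 5 and H replicate 2 left 6. Calls over all genes moved too: they numbered 0 without control replicate 1, 57 without control replicate 2, 121 without H replicate 4, 191 without L replicate 3, 263 without H replicate 5, and between 432 and 813 without each of the other 5 knockouts. Over these 10 fits the log2 difference stayed between -2.77 and -1.87 for Slc25a48, -1.43 and -1.05 for Slc25a15, -1.09 and -0.69 for Slc25a37, -1.03 and -0.70 for Slc25a45, -0.56 and -0.34 for Slc25a44 and -0.49 and -0.33 for Slc25a10. The calls of Slc25a44 and Slc25a10 were lost in 9 and 8 of the 10 fits, those of Slc25a48 and Slc25a15 in 5 each, that of Slc25a37 in 4 and that of Slc25a45 in 2.

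Knockouts H and L were compared because the series asks about variable weight. None of the 39 carriers passed (limma), 0 also at an unadjusted p under 0.05, and of all genes 0% passed and 2.22% had an unadjusted p under 0.05. The smallest p among the carriers was that of Slc25a45, with 40.7 ± 4.02 in knockouts H and 36.5 ± 6.80 in knockouts L (SD, n = 5 and 3) and a log2 difference of 0.22 (95% interval -0.02 to 0.47). For Slc25a48 the interval ran from -1.07 to 0.80 and for Slc25a15 from -0.62 to 0.49, so sizeable differences between H and L were not resolved. The intervals were narrower for Slc25a10 (-0.26 to 0.18) and Slc25a44 (-0.29 to 0.12).

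Each class was also set against the same 2 controls, which both comparisons share. Slc25a48 differed by -2.39 ± 0.46 in knockouts H and -2.25 ± 0.54 in knockouts L, Slc25a15 by -1.20 ± 0.27 and -1.13 ± 0.32, Slc25a37 by -0.88 ± 0.18 and -0.98 ± 0.21 and Slc25a45 by -0.82 ± 0.12 and -1.05 ± 0.14. Past the threshold for H were Slc25a45, Slc25a48 and Slc25a37 (limma adjusted p = 0.0278, 0.0432 and 0.0492), where 1.77% of all genes were called lower. For L it was Slc25a45 alone (limma adjusted p = 0.0487), where 0.293% were.

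The letter and the number range were given their own contrasts. No carrier passed for M versus F in limma, 4 had an unadjusted p under 0.05, and over all genes the shares were 0.022% and 4.83%. Slc25a13 had the smallest p. It averaged 61.1 ± 6.42 in M and 82.6 ± 13.9 in F animals (SD, n = 6 and 4), and every M animal (at most 69.8) lay below every F animal (at least 70.6). Its log2 difference of -0.45 ± 0.10 missed the threshold (limma adjusted p = 0.934). Slc25a13 was picked by its p, so the separation of M from F is no added support. The share of all genes separated in this way was not counted. For the upper against the lower number range, again 0 carriers passed in limma and 5 had an unadjusted p under 0.05, where 0.3% and 10.2% of all genes did so. Slc25a44 led with 147 ± 11.8 in the 5 upper knockouts and 105 ± 2.47 in the 3 lower ones, with no overlap. Its log2 difference was 0.39 ± 0.090 (limma adjusted p = 0.185). Slc25a44 was picked by its p as well, so the lack of overlap is no added support either.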

How the data were processed

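Values are intensities on a linear scale as the authors deposited them, 1 for every probe set on each array. How they were summarized and normalized is not given in the sources used here; medians of 18.4 to 18.8 per array show that the arrays are on a common scale. Of 45037 probe sets left after 64 array controls, 34945 have 1 symbol in the platform annotation, 932 several and 9160 none; symbols were updated by gene identifier with RefSeq names (GRCm38.p6). Per gene the probe set with the highest mean log2(intensity + 16) was used. Genes at or under the 25th percentile were left out, which left 13644.

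Linear models were run in limma 3.58.1 under R 4.3.3 with moderated variances. Number range and letter were covariates, and p-values were adjusted by Benjamini-Hochberg across the genes tested. Knockout versus control used 2 groups, the other contrasts 3 groups. The fit was also run on simulated data with independent noise for each gene and no effect of range or letter. That run checks the code and does not bear on how reliable the calls are. Plots used matplotlib 3.10.9. Replicates are taken as separate animals from their numbers, but no label says how they were raised or sampled, and p-values cover the spread among these arrays alone. The members, lists and tests were chosen with earlier results of these data known.

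Named in full were carriers past the threshold, the brightest member of each role group and up to 4 called members of each partner list; no protein sequences were used here, and promoters are shown instead. Alternatives were other pseudocounts (1, 64), filters, covariates, normalization, probe set summaries, an intensity trend in the moderated variances and arrays left out.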

Additional observations from a re-analysis of the deposited data

Results flagged for a closer look

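An array was singled out where its gap to the nearest other array of its class took up an unusually large part of the class's range (Dixon's criterion). Of 78 classes examined (39 carriers, in the 8 knockouts and in the 5 knockouts H), 2 met it, which is 2.56%, and chance alone gives about 5%. Slc25a33, a pyrimidine nucleotide carrier, read 29.4 in knockout H replicate 4, against 38.5 to 41.8 in the other knockouts H. That array is the only F animal among the knockouts H. Over all arrays Slc25a33 averaged 40.9 ± 2.51 in M and 31.7 ± 7.24 in F animals (SD, n = 6 and 4, limma adjusted p = 0.934). The F animal knockout L replicate 3 read 41.7, within the M range of 38.5 to 45.3. The part of the letter in the low array was not tested. Slc25a38, the glycine carrier, read 46.0 in knockout H replicate 3, against 55.3 to 63.0 in the other 7 knockouts.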

How the results depend on the processing

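The 6 carriers that fell kept a negative difference in all 24 alternatives run for knockout versus control. Of these alternatives, 4 were chosen after seeing the data. The 6 genes had been picked as lower and the same arrays were refitted, so the kept sign is no added support. With pseudocount 1, or with an intensity trend in the moderated variances, 4 carriers passed and Slc25a10 and Slc25a44 did not. Without the filter on dim genes 5 passed and Slc25a15 did not. With pseudocount 64, a filter at the 50th percentile, quantile normalization or all probe sets averaged, the same 6 passed. The count of carriers past the threshold, 6, ranged from 0 to 6 with single arrays left out, and that of all genes, 588, from 0 to 813. The count of carriers was 3 without the 2 arrays highest in alveolar and club markers. With intestinal markers as covariate, a level that largely follows genotype here, both counts were 0. All genes numbered 1366 without covariates (626 higher and 740 lower, against 207 and 381), 1033 in the lower range alone and 924 with alveolar and club markers as covariate (414 higher and 510 lower); the causes were not tested. With range as the only covariate, 1 carrier (Slc25a44) passed for upper versus lower range. Counts of carriers for H versus L and M versus F were 0 in all alternatives. Carriers that did not pass changed sign as follows. With intestinal markers as covariate, Slc25a5 was 0.22, Slc25a1 0.14, Slc25a24 0.055, Slc25a38 0.18, Slc25a40 -0.0022, Slc25a32 -0.075, Slc25a33 -0.10, Slc25a27 -0.11, Slc25a28 -0.32, Slc25a14 -0.17 and Slc25a20 -0.37. Without covariates, Slc25a17 was 0.019, Slc25a28 -0.13, Slc25a30 0.073 and Slc25a35 -0.021, and with range alone Slc25a25 was 0.012. With all probe sets averaged, Slc25a30 was 0.071, Slc25a26 -0.013 and Slc25a25 0.023. Slc25a39 was 0.015 with alveolar and club markers as covariate and 0.093 without the 2 arrays highest in them, where Slc25a46 was -0.015. With single arrays left out, the ranges were -0.0049 to 0.21 for Slc25a28, -0.0053 to 0.097 for Slc25a14, -0.17 to 0.21 for Slc25a26, -0.0012 to 0.12 for Slc25a46, -0.10 to 0.085 for Slc25a39, -0.040 to 0.20 for Slc25a33, -0.070 to 0.20 for Slc25a20, -0.13 to 0.042 for Slc25a53, -0.11 to 0.12 for Slc25a25, -0.21 to 0.030 for Slc25a42 and -0.040 to 0.15 for Slc25a35. No paired analysis was possible because the labels give no replicate numbers shared between groups. A lone control is assumed to vary like the knockouts, and signals near the array medians limit what dim carriers can show.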
